A study of Homo sapiens with 6 samples.

Results

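The genes described are those of the mitochondrial ribosome that carry the family's own symbols: every gene of the deposited table whose symbol is MRPL or MRPS followed by a number. There were 79 such genes among 12308 rows of the table, 49 named for the large subunit (MRPL) and 30 for the small subunit (MRPS). All but 1 are protein-coding, the exception being the pseudogene MRPS31P5, and all 79 passed the filter on low values, among 11766 genes tested. The RNA came from OVCAR5, a human ovarian cancer cell line, and from OVCAR5R, its derivative resistant to the CHK1 inhibitor prexasertib (Prex), with 3 libraries each. OVCAR5R was selected from OVCAR5 in rising Prex up to 3 µM, kept at 2 µM, and grown without drug for at least 4 days before use, whereas the parental cells had no such selection. Each group is 1 line and OVCAR5R is 1 selected population. The study's methods describe 3 cultures of each line, so p-values measure the spread between libraries described as cultures of 1 line. Whether the 3 libraries of a line came from like cells was not tested, for OVCAR5 or for OVCAR5R. The question was how far the messages for the mitochondrial ribosome differed between the resistant and the parental line.

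Mitochondria keep a ribosome of their own, which makes the few proteins encoded by mitochondrial DNA, all of them subunits of the respiratory chain and ATP synthase. Its ribosomal RNAs are read from mitochondrial DNA, but every one of its proteins is encoded in the nucleus, made in the cytosol and imported. Some of these proteins descend from bacterial ribosomal proteins and others were added in the course of mitochondrial evolution. The small subunit decodes the message, and the large subunit joins the amino acids and passes the new chain toward the inner membrane.

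Values are the authors' normalised read signal per gene, on a linear scale, and a log2 fold change is the OVCAR5R mean minus the OVCAR5 mean of log2(value + 1). The libraries held an estimated 35.8 M to 55.1 M reads (M, mega), of which 170436 to 306426 fell on the 79 genes and at least 149 on the least read of them in any library. Counting error was not estimated. For the least read gene, the pseudogene MRPS31P5, the SD was 0.24 over the OVCAR5 libraries and 0.05 over the OVCAR5R libraries (log2). OVCAR5 replicate 2 stood apart from the other 5 libraries in epithelial markers. EPCAM, an epithelial adhesion protein, had a value of 597 there and 11.9 to 31.7 elsewhere, and the keratin gene KRT19 had 1341 there and 3.09 to 10.7 elsewhere. KRT8 and KRT18, keratins of simple epithelia, were also highest in that library, at 7772 and 6196 against 1031 to 2103 and 1108 to 1992 in the rest. Of 9 epithelial and ovarian markers 6 were tested and PAX8, MSLN, EPCAM and KRT19 were at or below 31.7 in the other libraries. PAX8 did not set OVCAR5 replicate 2 apart, with 8.38, 11.4 and 9.93 in OVCAR5 and 5.66, 4.38 and 4.94 in OVCAR5R. MSLN was low throughout, at 6.11 in OVCAR5 replicate 2 and 0.24 to 1.60 elsewhere. Of 9 stromal and blood markers 3 were in the table, with CD68 at 40.7 to 72.8, COL1A1 at 1.29 to 15.2 and PDGFRB below 2 in every library. In bulk RNA, fewer cells of a type and less RNA per cell cannot be told apart. Whether OVCAR5 replicate 2 came from the same cells as OVCAR5 replicates 1 and 3 was not tested, and the OVCAR5 mean includes it. Counts and medians over gene groups are therefore also given without OVCAR5 replicate 2, and without OVCAR5 replicate 1, which was low for most of the 79 genes.

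Together the 79 genes took 0.413% of the signal in OVCAR5 replicate 1, 0.563% in replicate 2 and 0.550% in replicate 3, and 0.571%, 0.553% and 0.539% in OVCAR5R replicates 1 to 3. The groups overlapped, and the lowest share was that of OVCAR5 replicate 1. Per kilobase of the principal transcript, the median level over the 6 libraries was 49.4 for the large subunit and 35.5 for the small subunit, against 772 for 79 cytosolic ribosomal protein genes measured in the same libraries. Among the large subunit genes the highest levels per kilobase were those of MRPL12, a protein of the stalk that contacts translation factors, at 151, and MRPL15, at 111. MRPL50 at 8.53 and MRPL42 at 3.66 were the lowest. MRPL42 has an annotated principal transcript of 15582 bases, and its raw values of 40.8 to 63.3 lay inside the range of the other genes, so its place at the foot of the order rests on that length. In the small subunit MRPS24 at 150 and MRPS34 at 102 were highest, and MRPS23 at 9.26 and the pseudogene MRPS31P5 at 1.24 were lowest. With all exons of a gene counted as its length, MRPS24 came to 40.7 and MRPL12 stayed at 151, so the order depends on which transcript is used. In the plot of levels per length the bars of neighbouring genes overlap along the whole order, from MRPL12 down to MRPL50.

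**Figure D1:**
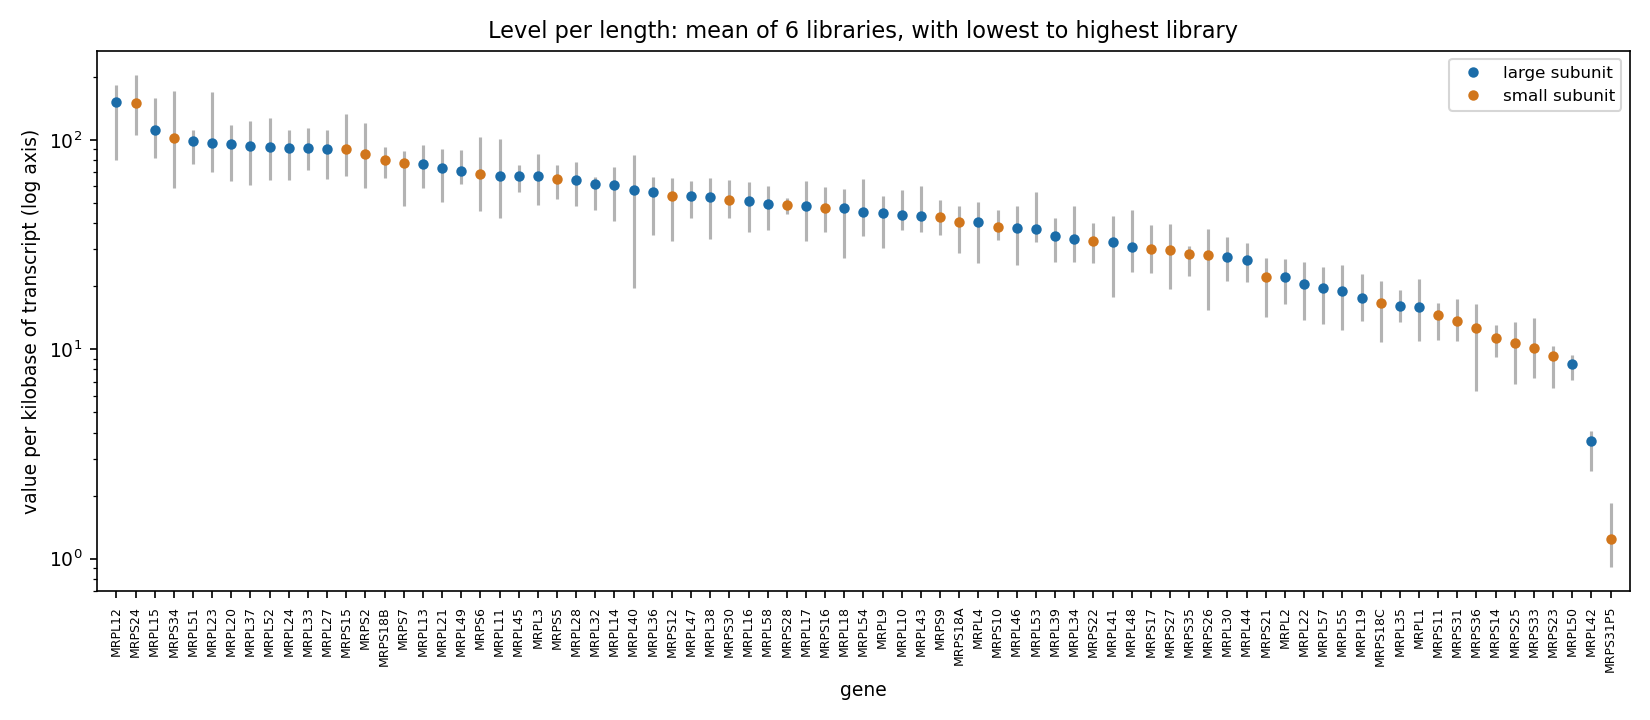
Level of each of the 79 genes per kilobase of its principal transcript (log axis), as the mean of the 6 libraries (points) with the lowest and highest library (grey bars), blue for the large and orange for the small subunit. MRPL12 (151) and MRPS24 (150) are at the top, and MRPL42 (3.66) and the pseudogene MRPS31P5 (1.24) at the foot.

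No gene of the mitochondrial ribosome passed the threshold between the lines: 0 of 79 had an adjusted p under 0.05 in limma, where 14 of 11766 genes did (0.119%). At an unadjusted p under 0.05, 0 of the 79 were higher in OVCAR5R, against 4.14% of all genes, and 1 was lower, MRPL40, against 6.25%. The 3 OVCAR5R libraries lay above all 3 OVCAR5 libraries for 4 of the 79 (8.4% of all genes) and below them for 2 (8.18% of all genes). Both counts were under the background share. The mean was higher in OVCAR5R for 54 of the 79, where 49.2% of all genes were, and the median log2 fold change was 0.08 for the 79 and -0.01 for all genes tested. The set was also narrow in its spread against all genes, but not against the cytosolic ribosomal protein genes. The quartiles of the log2 fold change were -0.05 and 0.24 for the 79 and -0.11 and 0.05 for the cytosolic ones. The SD of the log2 fold changes was 0.29 over the 79 and 0.54 over all genes, and 74 of 79 genes (93.7%) had a log2 fold change within ±0.5, compared with 77.2% of all genes and 77.9% of the 9726 genes in the same range of levels. For 67 of the 79 the 95% interval of the log2 fold change lay within ±1, so a doubling or a loss to 50% was outside the interval for those genes.

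**Figure D2:**
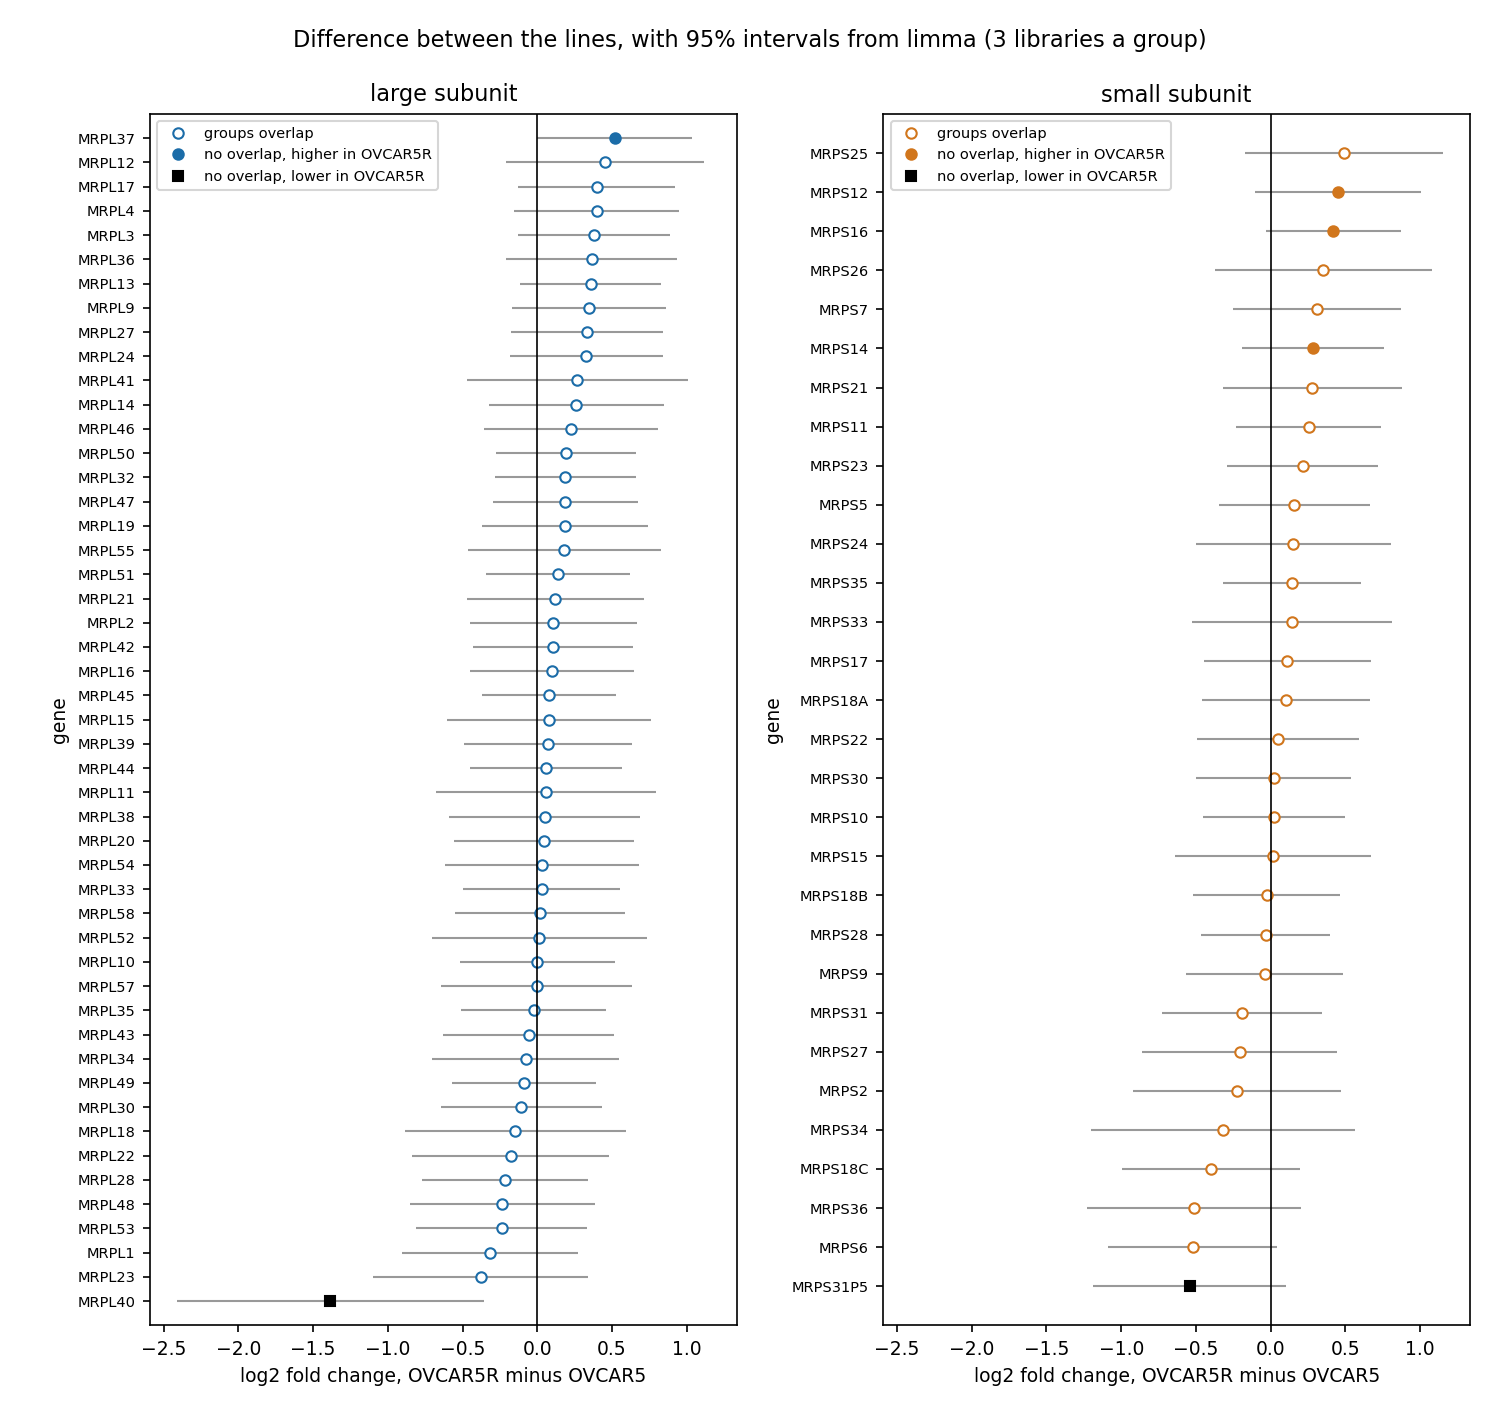
Log2 fold change of each gene (OVCAR5R minus OVCAR5) with its 95% interval from limma, large subunit on the left and small subunit on the right, ordered by fold change. Filled circles (4 genes) mark libraries that do not overlap and are higher in OVCAR5R, black squares (2 genes) those that are lower, and MRPL40 at -1.39 lies apart from the rest.

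The medians of the large and the small subunit were level. The median log2 fold change was 0.08 over the 49 large subunit genes, of which 35 were higher in OVCAR5R, and 0.08 over the 30 small subunit genes, of which 19 were higher. In OVCAR5 replicates 1 to 3 the median log2 value was 5.57, 6.07 and 6.0 for the large and 5.40, 5.93 and 5.94 for the small subunit. In OVCAR5R replicates 1 to 3 it was 6.06, 5.93 and 5.96 for the large and 5.99, 5.80 and 5.79 for the small subunit. The large subunit median was above the small one in each library, by 0.06 to 0.17 on the log2 scale, with overlap between the lines. The summed signal of the large subunit genes was 1.63 to 1.83 times that of the small subunit genes in OVCAR5 and 1.73 to 1.77 times in OVCAR5R.

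Symbols do not always give the subunit. MRPS18A and MRPS30 sit in the large subunit in structures of the human mitochondrial ribosome, and MRPS36 is not found in those structures and belongs to an alpha-ketoacid dehydrogenase complex. With those genes placed by structure and the pseudogene left out, the medians were 0.08 over 51 large subunit genes and 0.13 over 26 small subunit genes. The difference of the median log2 levels, large minus small, then ran from -0.02 to 0.15 over the libraries.

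Grouping by origin or by place in the ribosome gave medians of the same size. The 30 large subunit genes with a bacterial counterpart had a median log2 fold change of 0.11, from -0.38 for MRPL23 to 0.45 for MRPL12, and the 21 that mitochondria added had 0.05, from -1.39 for MRPL40 to 0.52 for MRPL37. In the small subunit the 16 genes of bacterial descent had a median of 0.13 and the 10 added ones 0.10. The 6 stalk genes had 0.02, the 7 genes of the central protuberance (the crest of the large subunit, which holds MRPL40) 0.05, the 9 genes around the exit of the peptide tunnel 0.08, and the 8 genes of the small subunit head 0.14. None of these groups had a gene with an adjusted p under 0.05. Without OVCAR5 replicate 1 the medians of these 8 groups ran from -0.25 (central protuberance) to -0.03 (tunnel exit), and without OVCAR5 replicate 2 from 0.17 (small subunit, added) to 0.25 (stalks), so each turned sign without the former library.

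OVCAR5 replicate 1 had the lowest value of the 6 libraries for 52 of the 79 genes, that is 33 of 49 in the large and 19 of 30 in the small subunit, whereas 16.0% of all genes tested were lowest there. OVCAR5 replicate 2 had the highest value for 31 of the 79, against 26.9% of all genes. Relative to each gene's mean over the libraries, the median of the 79 was -0.35 in OVCAR5 replicate 1, 0.17 in replicate 2 and 0.10 in replicate 3, and 0.16, 0.07 and -0.04 in OVCAR5R replicates 1 to 3 (log2). The widest differences were thus among the 3 OVCAR5 libraries and not between the lines. By their medians, other transcripts of like length were also lowest in OVCAR5 replicate 1 and highest in OVCAR5 replicate 2, but differed in the other libraries. Coding genes with a principal transcript in the middle range of the 79 (1597 genes) had a median of -0.16 in OVCAR5 replicate 1 and 0.22 in replicate 2. They had -0.02 in OVCAR5 replicate 3 and 0.00, 0.08 and -0.06 in OVCAR5R replicates 1 to 3. Of them 29.6% were lowest in OVCAR5 replicate 1 and 43.8% highest in OVCAR5 replicate 2. The share highest in OVCAR5 replicate 2 was 39.2% of the 79 and 63.3% of the cytosolic ribosomal protein genes. Cytosolic ribosomal protein genes had -0.23 and 0.35 in those 2 libraries and -0.32 in OVCAR5R replicate 3, where 53 of 79 were lowest, compared with 10 of the 79 mitochondrial ones. The part of transcript length in the low values of OVCAR5 replicate 1 was not tested.

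**Figure D3:**
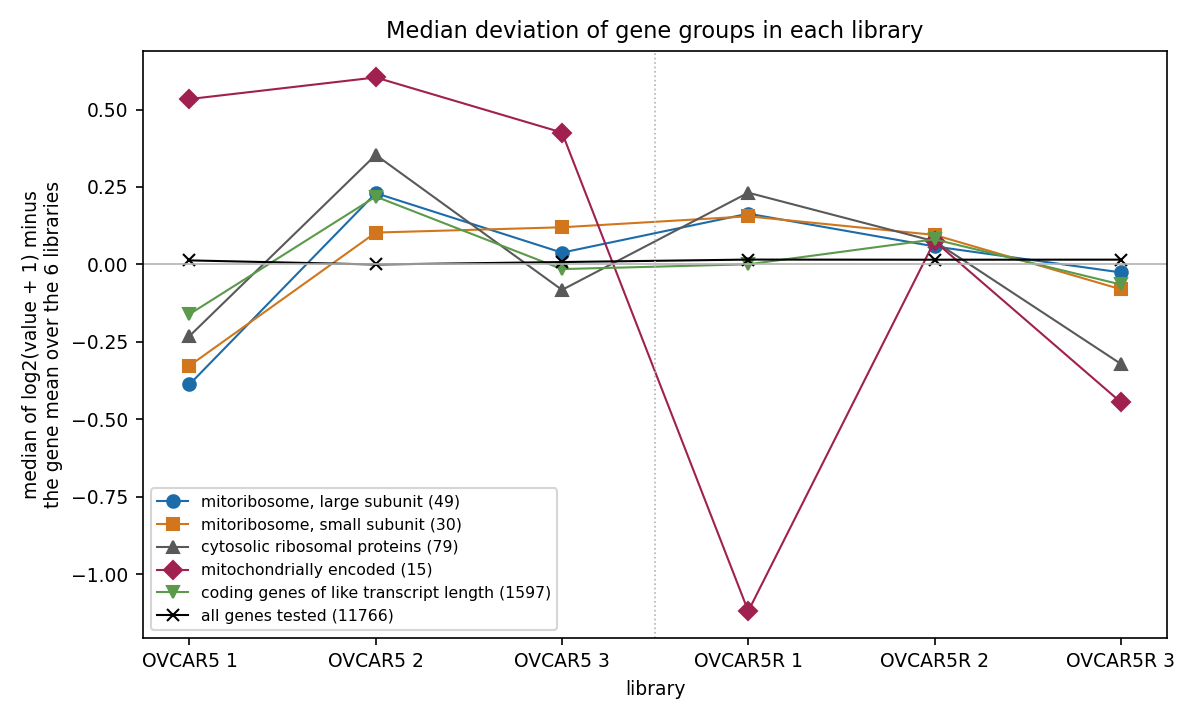
Median deviation of gene groups in each of the 6 libraries, as log2(value + 1) minus the gene's mean over the libraries, with the number of genes in the legend. Both mitoribosomal subunits (blue and orange) lie lowest in OVCAR5 replicate 1 (-0.39 and -0.33) and within 0.24 of 0 in the other libraries, whereas the mitochondrially encoded transcripts are above 0.42 in OVCAR5 and at or below 0.08 in OVCAR5R.

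The direction of the medians rested on OVCAR5 replicate 1. Without it the median log2 fold change was -0.09 for the large and -0.04 for the small subunit, and 4 of the 79 genes lay above and 10 below OVCAR5 without overlap, where 13% and 12.4% of all genes did. Without OVCAR5 replicate 2, the library with the epithelial markers, the medians were 0.22 and 0.17, and 18 of the 79 genes lay above and 3 below without overlap, against 13.8% and 13.7% of all genes. The number with an adjusted p under 0.05 was 0 of 79 in both cases.

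**Figure D4:**
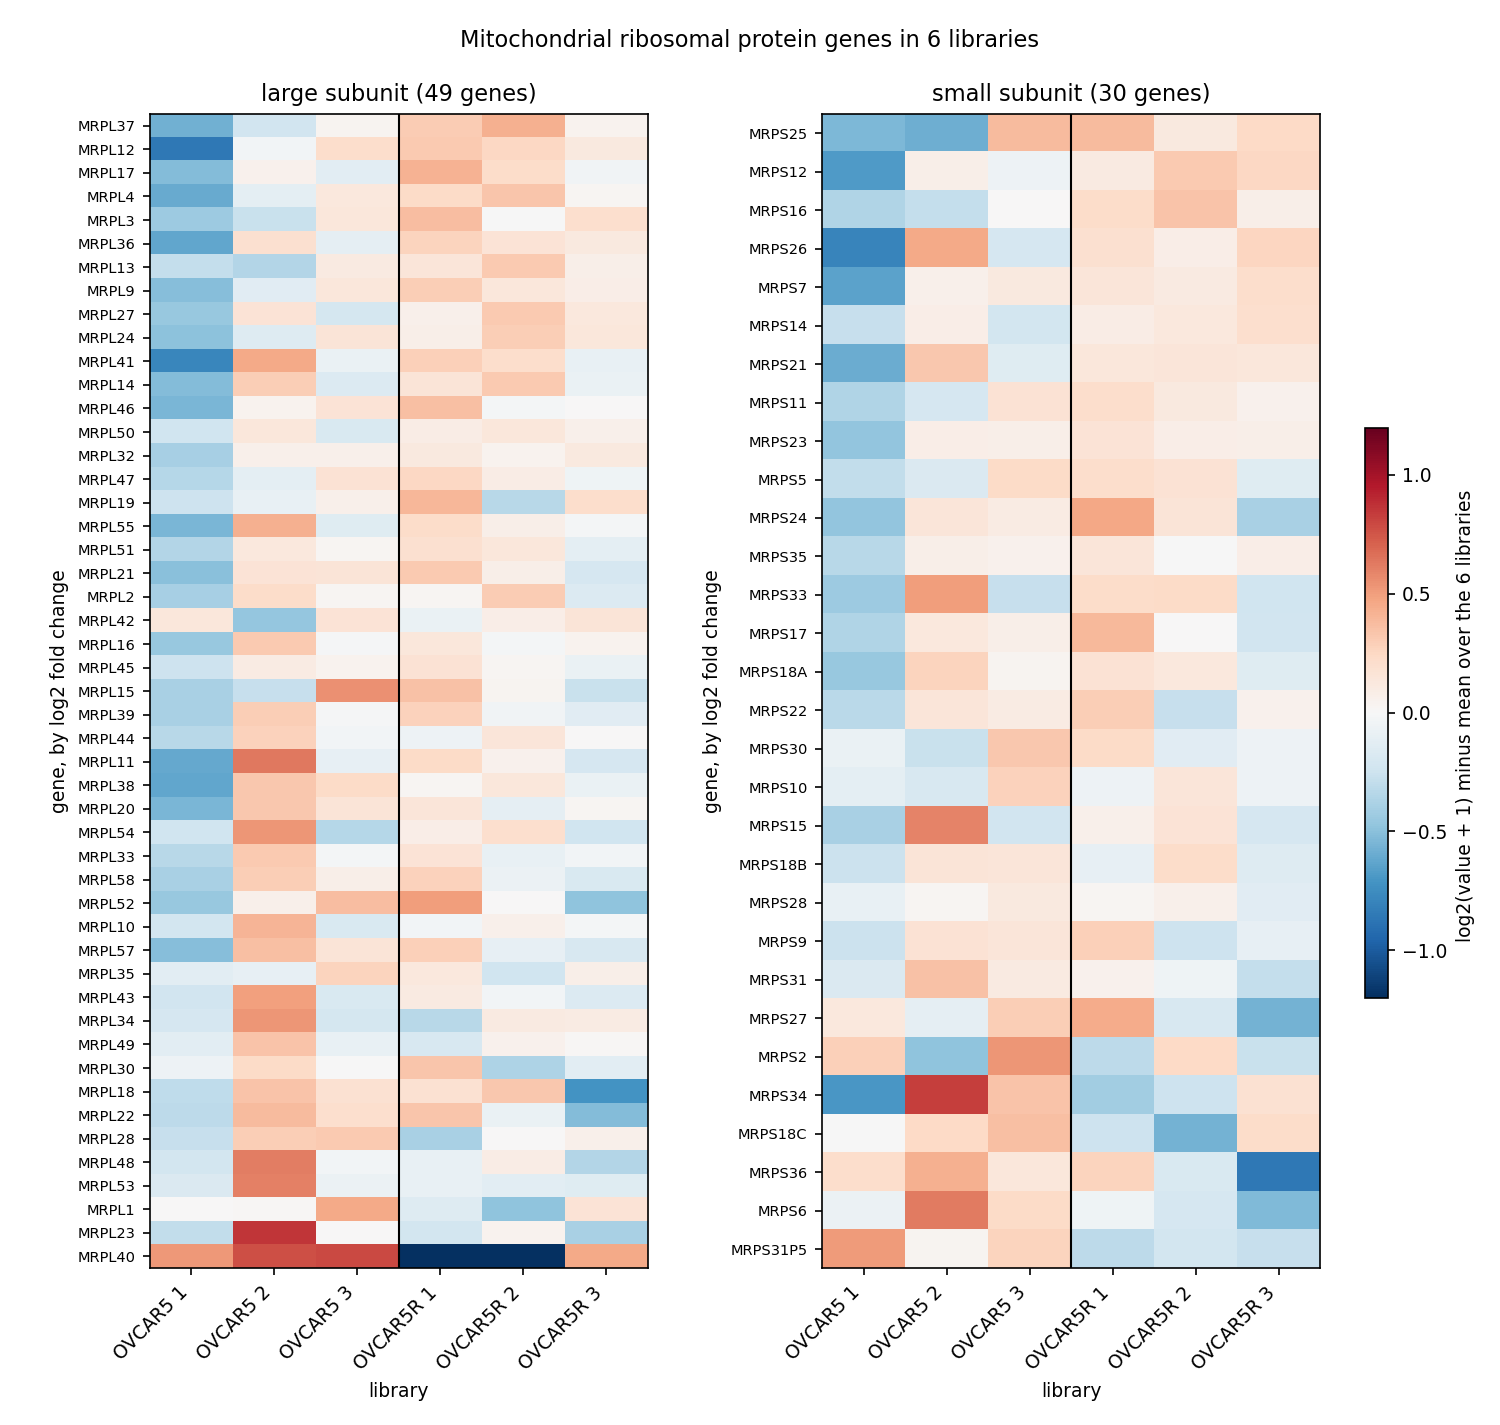
Values of all 79 genes in the 6 libraries, as log2(value + 1) minus the gene's mean over the libraries (red above, blue below), ordered by log2 fold change within each subunit. The column of OVCAR5 replicate 1 is blue for most genes (lowest library for 52 of 79), and MRPL40 at the foot of the large subunit is beyond the blue end of the colour scale in OVCAR5R replicates 1 and 2.

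MRPL40, a protein of the central protuberance that mitochondria added, had the widest difference between the lines. It lies on chromosome 22 (GRCh38). Its value was 97.5, 116 and 118 in OVCAR5 replicates 1 to 3 and 27.3, 27.7 and 93.4 in OVCAR5R replicates 1 to 3. OVCAR5R replicates 1 and 2 were far below every other library, and OVCAR5R replicate 3 was just under the lowest OVCAR5 library. The log2 fold change was -1.39 (SE 0.45, limma adjusted p = 0.35). Without OVCAR5 replicate 1 it was -1.47 (limma adjusted p = 0.535), and without OVCAR5R replicate 3 it was -1.96 (limma adjusted p = 0.087). OVCAR5R replicate 3 was the OVCAR5R library nearest to OVCAR5, so leaving it out had to widen the difference, and no conclusion is drawn from that fit. The RefSeq promoter (build GRCh38.p14) of MRPL40 is shown with those of 3 of the 4 genes whose libraries did not overlap and were higher in OVCAR5R, so that they can be compared at their start sites. The promoter of the remaining gene, MRPS12, lies where the gene overlaps SARS2 and is not printed. From 250 bases before to 50 after its start, MRPS12 holds an ETS and a YY1 word. Each printed promoter runs 5′ to 3′ from 120 bases before to 30 after the start. Capitals mark CCGGAAG (the core bound by ETS factors such as GABPA), TGCGCANGC (NRF1) or AANATGGC (YY1) on either strand.
MRPL40, chr22:19432425-19432574, + strand: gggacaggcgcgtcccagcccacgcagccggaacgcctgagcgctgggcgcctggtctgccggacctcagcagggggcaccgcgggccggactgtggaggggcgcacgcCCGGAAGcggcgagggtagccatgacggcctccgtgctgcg
MRPL37, chr1:54200047-54200196, + strand: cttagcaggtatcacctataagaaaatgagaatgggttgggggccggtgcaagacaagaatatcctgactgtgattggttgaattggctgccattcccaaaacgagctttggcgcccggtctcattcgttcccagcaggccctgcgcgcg
MRPS14, chr1:175023396-175023545, - strand: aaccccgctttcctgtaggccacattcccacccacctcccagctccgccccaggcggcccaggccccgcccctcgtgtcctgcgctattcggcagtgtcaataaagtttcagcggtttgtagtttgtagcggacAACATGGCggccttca
MRPS16, chr10:73252615-73252764, - strand: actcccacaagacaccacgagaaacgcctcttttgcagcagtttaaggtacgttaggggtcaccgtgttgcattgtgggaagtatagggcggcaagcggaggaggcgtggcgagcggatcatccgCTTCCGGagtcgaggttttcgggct
Within the printed bases, MRPL40 and MRPS16 hold an ETS word near the start and MRPS14 a YY1 word just after the start. MRPL37 holds none of the 3 words there, but it holds a YY1 word in the wider window used for MRPS12. MRPL40, MRPS14 and MRPS16 hold no further word in that wider window.

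RefSeq promoters (250 bases before to 50 after the start) were matched for 69 of the 79 genes. The ETS word was in 43.5% of them, against 23.6% of the promoters of the other genes tested. The YY1 word was in 37.7% against 13.1%, the NRF1 word in 14.5% against 9.83%, and TATAAA in 4.35% against 7.99%. At least 1 of the first 3 words was in 73.9% of the members' promoters and 39.5% of the others. The words were chosen after sequences were seen, so these shares are a description and no test of enrichment. They are matches of letters and not measured binding sites. The median log2 fold change was 0.04 for the 30 members with an ETS word and 0.15 for the 39 without, 0.10 for the 26 with a YY1 word and 0.07 for the 43 without, and 0.04 for the 10 with an NRF1 word and 0.10 for the 59 without. Without OVCAR5 replicate 1 all 6 of these medians were below 0, from -0.12 to -0.01, and without OVCAR5 replicate 2 they ran from 0.17 to 0.23. The factors themselves were measured too: GABPA had a log2 fold change of -0.19 (SE 0.24), NRF1 0.04 (SE 0.20) and YY1 -0.23 (SE 0.20), and each overlapped between the lines.

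Genes beside MRPL40 on chromosome 22 were low in the same libraries. Of the 25 other tested genes that start within 1 Mb of it, 24 had a lower mean in OVCAR5R, with a median log2 fold change of -0.69, and over 72 genes within 5 Mb the median was -0.50. Relative to the OVCAR5 mean, MRPL40 was at -1.97 in OVCAR5R replicate 1, -1.95 in replicate 2 and -0.23 in replicate 3 on the log2 scale. The 8 tested genes from DGCR2 to CDC45, which begin between -309448 and 47557 bases from the start of MRPL40, ran from -2.47 to -1.34 in replicate 1, from -2.38 to -1.64 in replicate 2 and from -0.55 to 0.21 in replicate 3. That run of genes was picked after its values were seen. Farther out, SEPT5 was at -1.38, -0.50 and -0.19, and TXNRD2, a mitochondrial thioredoxin reductase, was higher in each OVCAR5R library (0.77, 1.22 and 0.74). The histone chaperone gene HIRA and C22orf39 overlap MRPL40 on the other strand in the GENCODE annotation, from which the starts were taken. Because the strand setting of the counting is not given, reads of these genes cannot be told apart there. HIRA had 110, 62.9 and 121 in OVCAR5 and 27.4, 24.3 and 110 in OVCAR5R, so it too was low only in OVCAR5R replicates 1 and 2.

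**Figure D5:**
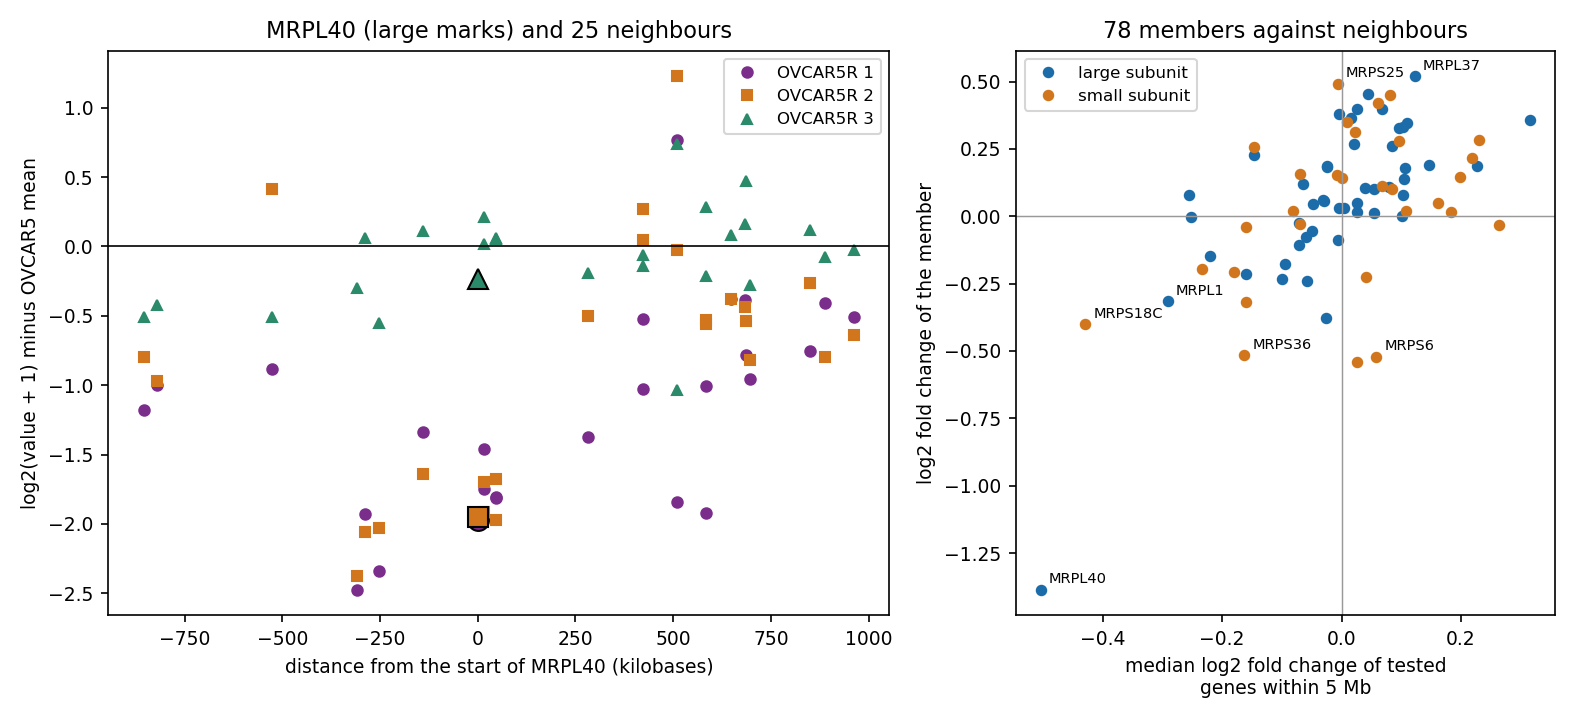
Left, MRPL40 (large marks at 0) and 25 tested genes within 1 Mb, as log2(value + 1) in each OVCAR5R library minus the OVCAR5 mean, against distance from the start of MRPL40. Right, log2 fold change of 78 members against the median of the tested genes within 5 Mb. Around MRPL40, OVCAR5R replicates 1 and 2 reach -2.47 and -2.38 while replicate 3 stays between -1.04 and 0.74.

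Over the 78 members with at least 10 tested genes within 5 Mb, the member and the median of its neighbours had the same sign for 59, and Pearson's r across genes was 0.59, or 0.49 without MRPL40. Without OVCAR5 replicate 1 the sign was shared by 53 of 78 (r = 0.61), and without OVCAR5 replicate 2 by 59 (r = 0.62). Genes are not independent replicates and both sides share the same 6 libraries, so this is a description. Windows of nearby members overlap, and no such share is given for genes outside the family. A pair of genes on chromosome 4 followed the same libraries as MRPL40. MRPS18C, a copy of the bacterial S18 protein, had 26.8, 31.8 and 34.7 in OVCAR5 and 22.4, 17.7 and 31.3 in OVCAR5R, a log2 fold change of -0.40 (SE 0.26). Its 29 neighbours had a median of -0.66, -0.66 and 0.04 in OVCAR5R replicates 1 to 3 relative to the OVCAR5 mean. MRPL1, a protein of the stalk, had 23.3, 23.5 and 32.3 in OVCAR5 and 20.7, 16.3 and 26.3 in OVCAR5R, and its 35 neighbours had -0.59, -0.52 and -0.01. In both, OVCAR5R replicate 3 lay within the OVCAR5 range and replicates 1 and 2 below it.

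Another order of libraries than that of MRPL40 was seen for MRPS36 and MRPS27 on chromosome 5. MRPS36 had 18.1, 21.2 and 17.2 in OVCAR5 and 18.9, 13.5 and 8.15 in OVCAR5R, with OVCAR5R replicate 3 lowest and replicate 1 within the OVCAR5 range (log2 fold change -0.52, SE 0.31, limma adjusted p = 0.602). Its 43 neighbours had medians of 0.37, -0.26 and -0.42 in the same OVCAR5R libraries. MRPS27, a small subunit protein with pentatricopeptide repeats, had 88.2, 75 and 99.2 in OVCAR5 and 110, 70.7 and 54.2 in OVCAR5R, and its 47 neighbours had 0.31, -0.21 and -0.59. For both genes OVCAR5R replicate 1 was the highest and replicate 3 the lowest of the OVCAR5R libraries, as for the medians of their neighbours. Both genes start within 5 Mb of each other, so their sets of neighbours overlap. The median of the 79 fell in the same order, at 0.16, 0.07 and -0.04 relative to each gene's mean over the libraries. Of the other members on chromosome 5, MRPL22 and MRPL36 also fell in that order and MRPS30 did not (101, 78.1 and 82.5).

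MRPS6, a small subunit protein of bacterial descent on chromosome 21, had 62.5, 102 and 77.0 in OVCAR5 and 63.2, 57.1 and 45.2 in OVCAR5R, a log2 fold change of -0.52 (SE 0.25, limma adjusted p = 0.503) beside a neighbour median of 0.06. OVCAR5R replicate 1 lay just above OVCAR5 replicate 1, so the groups overlapped. MRPL23, at the tunnel exit, had 55.3, 124 and 68.0 in OVCAR5 and 58.1, 70.2 and 51.6 in OVCAR5R. Its log2 fold change was -0.38 with all libraries and -0.04 without OVCAR5 replicate 2, the single high library. MRPL48 and MRPL53 had the same shape, with log2 fold changes of -0.23 and -0.24, and 0.01 and 0.00 without that library. MRPS34, which mitochondria added to the small subunit, had 60.0, 175 and 125 in OVCAR5 and 73.2, 82.6 and 111 in OVCAR5R, and its value of -0.32 became 0.02 without OVCAR5 replicate 2. Its neighbours on chromosome 16 had a median of -0.16, and -0.45, -0.15 and 0.14 in OVCAR5R replicates 1 to 3 relative to the OVCAR5 mean, where MRPS34 was at -0.58, -0.41 and 0.02.

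Among the genes that were higher in OVCAR5R, MRPL37 had the largest log2 fold change. This protein, which mitochondria added to the large subunit, had 90.6, 116 and 139 in OVCAR5 and 168, 183 and 140 in OVCAR5R. The libraries did not overlap, but OVCAR5R replicate 3 was only just above OVCAR5 replicate 3 (log2 fold change 0.52, SE 0.23, limma adjusted p = 0.481). MRPS16, a conserved protein needed for assembly of the small subunit, had 95.8, 101 and 124 against 143, 156 and 129, a log2 fold change of 0.42 (SE 0.20, limma adjusted p = 0.50). MRPS12, the protein of the decoding centre at which streptomycin resistance arises in bacteria, had 40.02, 67.6 and 61.7 against 69.8, 80.6 and 77.0, a log2 fold change of 0.45 (SE 0.24, limma adjusted p = 0.552). MRPS14 had 19.5, 25.2 and 20.3 against 25.5, 26.2 and 27.6, with OVCAR5 replicate 2 almost level with OVCAR5R (log2 fold change 0.28, SE 0.21, limma adjusted p = 0.659). In these 4 genes the gap between the nearest libraries of the lines was small beside the spread within OVCAR5.

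The other genes at the high end overlapped between the lines. MRPL12 had 82.3, 147 and 174 in OVCAR5 and 187, 178 and 163 in OVCAR5R, and its log2 fold change of 0.45 fell to 0.14 without OVCAR5 replicate 1. MRPL17 (0.40), MRPL4 (0.40) and MRPL3 (0.38) of the large subunit, all of bacterial descent, kept values of at least 0.19 whichever library was left out. MRPS25 had 32.3, 31.2 and 61.7 against 61.9, 51.3 and 56.1, so that 1 OVCAR5 library stood at the level of OVCAR5R (0.49, SE 0.29). MRPS26 (0.35) and MRPS7 (0.31) fell to 0.05 and 0.07 without OVCAR5 replicate 1. For the genes with the highest and lowest levels per length, the log2 fold changes were 0.08 for MRPL15, 0.15 for MRPS24, 0.21 for MRPS23, 0.19 for MRPL50 and 0.11 for MRPL42.

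The MRPS18 genes are 3 copies of 1 bacterial gene, and their log2 fold changes were 0.10 (SE 0.24) for MRPS18A, -0.03 (SE 0.21) for MRPS18B and -0.40 (SE 0.26) for MRPS18C, all with overlap between the lines. MRPS30, a large subunit protein despite its name, had 0.02 (SE 0.23). The pseudogene MRPS31P5 had 6.45, 4.32 and 5.29 in OVCAR5 and 3.19, 3.49 and 3.29 in OVCAR5R, lower without overlap (log2 fold change -0.54, SE 0.28, limma adjusted p = 0.539). Its parent MRPS31 had -0.19 (SE 0.23). Both values are uncertain, since reads of such near copies can be assigned to either.

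Members mostly varied together over the 6 libraries. Pearson's r of a member with the mean of the other 78 had a median of 0.72 and reached 0.97 for MRPS18A, and was lowest for MRPL42 (-0.59), MRPS31P5 (-0.57), MRPS2 (-0.41) and MRPL40 (-0.28). Outside the family the genes closest to the mean of the 79 were THOC7 (r = 0.996), a subunit of the THO messenger RNA export complex, NDUFS6 (0.994), a subunit of respiratory complex I, TOMM6 (0.992), of the outer membrane import complex, KIAA2013 (0.988) and MAP2K3 (0.988). All these correlations are over 6 libraries that share the low OVCAR5 replicate 1.

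NDUFS6 also starts 34 bases from MRPL36 on the opposite strand. Such head-to-head pairs, with starts within 1000 bases on opposite strands, were found for 24 of 78 coding members (30.8%) and for 15.4% of 11107 coding genes tested. MRPL46 and MRPS11 form a pair within the family, 34 bases apart, 1 gene for each subunit. MRPL46 had 25.8, 39.3 and 42.6 in OVCAR5 and 49.1, 37.4 and 38.2 in OVCAR5R, and MRPS11 had 40.5, 45.5 and 59.3 and then 60.6, 57.0 and 54.5. Their log2 fold changes were 0.23 (SE 0.25) and 0.26 (SE 0.21), and both were lowest in OVCAR5 replicate 1. Other pairs join a member to a gene of the same organelle: MRPL47 to NDUFB5 of complex I (0.19 and 0.14), MRPS12 to SARS2, the mitochondrial seryl-tRNA synthetase (0.45 and 0.09), and MRPL43 to TWNK, the helicase of mitochondrial DNA (-0.06 and 0.38). Both genes had the same sign in 18 of the 23 distinct pairs, in 12 without OVCAR5 replicate 1 and in 22 without OVCAR5 replicate 2. Where starts overlap, as in MRPS12 and SARS2, reads could again be shared.

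Mitoribosomal proteins that do not carry the MRP symbols were read the same way. Of 6 listed, 5 were tested and all had a higher mean in OVCAR5R, with a median log2 fold change of 0.05. DAP3, a GTP-binding protein of the small subunit, had 108, 108 and 135 in OVCAR5 and 166, 166 and 145 in OVCAR5R, without overlap (log2 fold change 0.45, SE 0.19, limma adjusted p = 0.476). The other four, AURKAIP1, CHCHD1, GADD45GIP1 and PTCD3, lay between 0.02 and 0.06. The median of the 5 was -0.15 without OVCAR5 replicate 1 and 0.26 without OVCAR5 replicate 2.

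The factors that build and serve the mitochondrial ribosome did not pass the threshold either. Of 31 assembly factors 26 were tested, 0 with an adjusted p under 0.05, 19 with a higher mean in OVCAR5R, 5 higher without overlap (8.4% of all genes) and a median log2 fold change of 0.19, from -0.44 for METTL15, a methyltransferase of the small ribosomal RNA, to 0.70 for MRM1, a methyltransferase of the large one. The median of the 26 was 0.14 without OVCAR5 replicate 1, with 5 higher without overlap (13% of all genes), and 0.18 without OVCAR5 replicate 2, with 6 (13.8%). The 16 translation factors tested had a median of 0.04, from -0.62 for the initiation factor MTIF3 to 0.48 for the elongation factor GFM1. Of these, 9 had a higher mean in OVCAR5R, and 0 were higher without overlap (8.4% of all genes). Lower without overlap were 2 (8.18% of all genes). The median of the 16 was -0.06 without OVCAR5 replicate 1 and 0.04 without OVCAR5 replicate 2. The 17 mitochondrial tRNA synthetases had a median of 0.19, with 13 higher, 3 of them without overlap (8.4% of all genes), and 0 with an adjusted p under 0.05 in limma. That median was 0.06 without OVCAR5 replicate 1, with 4 higher without overlap (13% of all genes), and 0.20 without OVCAR5 replicate 2, with 3 (13.8%). The 10 tested genes for replication and transcription of mitochondrial DNA had a median of 0.30, from -0.11 for the polymerase POLG to 0.38 for TWNK. Of these, 8 were higher, 2 of them without overlap (8.4% of all genes). The medians were 0.25 and 0.24 without OVCAR5 replicates 1 and 2 in turn. Of 9 nuclear regulators tested, MYC alone did not overlap and was higher in OVCAR5R, as were 8.4% of all genes. It had 105, 97.5 and 93.6 in OVCAR5 and 146, 123 and 113 in OVCAR5R (log2 fold change 0.36, SE 0.19, limma adjusted p = 0.549). GABPB2 was lowest at -0.28. The median of the 9 was -0.03, and -0.03 and -0.07 without OVCAR5 replicates 1 and 2 in turn. Of 10 proliferation genes, 6 were higher in OVCAR5R, with a median of 0.13, from -0.55 for CCNA2 to 0.53 for TOP2A, and medians of 0.19 and 0.09 without OVCAR5 replicates 1 and 2 in turn.

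The RNAs that the mitochondrial ribosome contains and translates are given as context. All 15 mitochondrially encoded transcripts in the table had a lower mean in OVCAR5R and 14 of them were lower without overlap (8.18% of all genes), with a median log2 fold change of -0.98 and 0 with an adjusted p under 0.05. The count was 14 and the median -1.02 without OVCAR5 replicate 1, and 14 and -0.94 without OVCAR5 replicate 2 (12.4% and 13.7% of all genes). The ribosomal RNA of the small subunit, MT-RNR1, had 615, 1173 and 576 in OVCAR5 and 352, 450 and 361 in OVCAR5R (log2 fold change -0.95, SE 0.30, limma adjusted p = 0.342). That of the large subunit, MT-RNR2, had 3366, 4701 and 1624 and then 778, 1067 and 1514 (log2 fold change -1.45, SE 0.42, limma adjusted p = 0.308). How closely the signal of MT-RNR1 and MT-RNR2 followed the amount of ribosomal RNA in the cells was not tested. Together the 15 took 3.76% to 4.30% of the signal in OVCAR5 and 1.32% to 2.94% in OVCAR5R, while the 79 nuclear genes for the proteins kept shares that overlapped.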

How the data were processed

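Total RNA of 3 OVCAR5 and 3 OVCAR5R libraries was measured by RNA-seq. The authors deposited 1 table of a normalised read signal per gene, scaled by 1 factor per library and not by gene length. The submitters' processing notes name hg38, and the aligner, counter, annotation and strand setting are not given in the sources used here. Of 12309 rows 1 identical row was dropped. Depth was estimated from the smallest step between low values, so it is approximate. Groups and replicate numbers came from the sample labels. Rows that reached 1 in 3 or more of the libraries were fitted on log2(value + 1) with limma 3.58.1 in R 4.3.3 (trend, two-sided, Benjamini-Hochberg over all genes tested), because the rank test the study names cannot give an exact p under 0.1 with 3 libraries a group. The fit was tested on simulated data. Chromosome, start, strand and principal transcript length came from GENCODE 29 (12234 of 12305 symbols matched), and promoters from RefSeq. The members and lists were chosen with earlier results of these data known, and the promoter words after sequences were seen. Named members were those without overlap between the groups, the 5 highest and 5 lowest log2 fold changes in each subunit, the 2 highest and 2 lowest levels per length in each subunit, and MRPS18A, MRPS18B, MRPS18C, MRPS30, MRPS36, MRPL12 and MRPS12. MRPS2, MRPS11, MRPS27, MRPS31, MRPL22, MRPL36, MRPL43, MRPL46 and MRPL47, and the neighbours of MRPL40, were named after their values were seen. Alternatives were quantile normalisation, no trend, other filters, a pseudocount of 0.1, a replicate block, the subunit by structure, the pseudogene left out, and each library left out in turn. Neighbours within 1 Mb were added after the data were seen.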

Additional observations from a re-analysis of the deposited data

How the results depend on the processing

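The number of the 79 genes past the adjusted threshold was 0 under each alternative fitted. Over all genes the 14 calls became 8 with a value of at least 5 required in all libraries, 5 with a replicate block, and 0 to 29 with 1 library left out. Deviations from the group means of same-numbered libraries correlated at -0.004, 0.18 and -0.12, and those of unlike-numbered libraries at -0.19 to 0.25. With 3 libraries a group these values cannot show whether the libraries were paired. The replicate block left 0 of the 79 called, as did each other alternative. Members higher at an unadjusted p numbered 0, or 2 with quantile normalisation, 2 without a filter and 0 to 5 with a library left out. Members lower numbered 1, or 2 without trend, 2 without a filter and 0 to 3 with a library left out. Members higher without overlap numbered 4, or 7 with quantile normalisation and 4 to 18 with a library left out. Members lower without overlap numbered 2, or 1 with the stricter filter, which removed MRPS31P5, and 2 to 10 with a library left out. The difference between the subunit medians, large minus small, was 0.003 and ran from -0.052 to 0.052 with a library left out, the lowest without OVCAR5 replicate 1. Signs of small log2 fold changes turned for MRPS18B (0.0067 with quantile normalisation, -0.16 to 0.045 with a library left out) and, with a library left out, for MRPL15 (-0.10 to 0.37), MRPL42 (-0.10 to 0.21), MRPL48 (-0.40 to 0.014), MRPL53 (-0.39 to 0.0022), MRPS18A (-0.10 to 0.26), MRPS24 (-0.046 to 0.39), MRPS30 (-0.11 to 0.19) and MRPS34 (-0.75 to 0.017). In each the value with all libraries was smaller than its standard error, and the cause was not tested. With 3 libraries a group, an exact permutation test cannot go under 0.1.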
